A study of Mus musculus with 6 samples.

Results

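Collagen genes encode the chains of the most abundant proteins of the animal extracellular matrix, in which chains built from glycine-rich repeats wind around each other in a rope-like helix. Fibrillar collagens pack into the fibres that give connective tissue its strength and are made mainly by fibroblasts, type IV collagens form the meshwork of basement membranes, and the other classes decorate fibrils, build beaded filaments or short-chain networks, or sit in the cell membrane. The RNA of these genes was compared between mouse embryonic stem cells (ESCs) kept in BRD0705/PD03 and ESCs kept in 2i. The members were all gene symbols of the form Col, a number, the letter a and a number: 44 of the 53927 symbols in the deposited tables, of which 11 were classed as fibrillar, 6 as basement membrane (type IV) and 27 as other.

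The study sequenced total RNA, after ribosomal RNA depletion, from 3 libraries of wild-type ESCs in BRD0705/PD03 and 3 libraries of wild-type ESCs in 2i. BRD0705/PD03 was N2B27 medium with 8 µM BRD0705, which selectively inhibits the alpha form of the kinase GSK3, and 1 µM PD0325901, which blocks MEK. The 2i medium was N2B27 with 3 µM CHIR99021, which inhibits both forms of GSK3, and the same 1 µM PD0325901, so the MEK inhibitor was shared by both groups. The labels name the line as E14, whereas the growth protocol describes B6D2F1 ESCs that were derived and expanded on feeder cells in each medium, and also culture on gelatin. Feeder cells are usually fibroblasts, which make collagen, and the labels do not say whether any remained in the cultures. The labels do not state whether the 3 libraries of a group are separate cultures. The p-values therefore cover only the spread among libraries, and that spread may be technical.

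Libraries held 16968959 to 51180228 counts, and no pair within a group agreed within sampling noise. Pou5f1, a defining pluripotency gene, was abundant in both groups, at 687 ± 6.29 CPM in BRD0705/PD03 and 765 ± 54.9 CPM in 2i (SD, n = 3 each). CPM, the unit of all levels, are the estimated counts relative to library size, with sizes scaled by TMM factors. Fibroblast markers were present in all 6 libraries and are given below beside the collagens. Log2 fold changes give BRD0705/PD03 over 2i and follow with ± their standard error. Adjusted p-values are from edgeR's quasi-likelihood test with Benjamini-Hochberg adjustment over 20422 genes. Of 10 ESC markers 4 were called higher (adjusted p < 0.05) and 5 lower, against 30.1% and 31.4% of all tested genes. Zfp42, Tdgf1, Utf1 and Sall4 were higher, and Pou5f1, Nanog, Klf4, Esrrb and Dppa5a lower. The 10 markers summed to 3154 ± 56.0 CPM in BRD0705/PD03 and 4005 ± 144 CPM in 2i. In bulk RNA, fewer cells of a type and less RNA per cell cannot be told apart.

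Promoter sequences are shown for 6 collagen genes on which the results turn: the type IV pair Col4a1 and Col4a2, whose starts lie back to back, the abundant fibrillar genes Col1a2 and Col3a1, and Col8a2 and Col17a1, which had the highest and the lowest log2 fold change among called collagens. Each run is 300 bases from RefSeq on GRCm38.p6, read 5′ to 3′ on the strand of the gene, from 250 bases before the transcript start to 50 bases after it. Capitals mark matches on either strand to the CCAAT box (CCAAT), the GC box (GGGCGG) and the TATA box (TATAAA). No matches of different motifs overlapped in these 6 windows. The windows are, on GRCm38.p6, chr8:11312777-11313076 on the minus strand for Col4a1, chr8:11312555-11312854 on the plus strand for Col4a2, chr6:4505368-4505667 on the plus strand for Col1a2, chr1:45311288-45311587 on the plus strand for Col3a1, chr4:126286544-126286843 on the plus strand for Col8a2 and chr19:47691993-47692292 on the minus strand for Col17a1.
Col4a1: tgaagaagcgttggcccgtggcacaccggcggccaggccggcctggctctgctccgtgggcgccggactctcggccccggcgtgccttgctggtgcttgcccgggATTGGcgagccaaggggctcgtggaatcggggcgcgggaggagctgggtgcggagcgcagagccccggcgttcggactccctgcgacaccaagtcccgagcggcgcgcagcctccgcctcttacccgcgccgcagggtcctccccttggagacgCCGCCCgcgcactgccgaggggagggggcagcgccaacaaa
Col4a2: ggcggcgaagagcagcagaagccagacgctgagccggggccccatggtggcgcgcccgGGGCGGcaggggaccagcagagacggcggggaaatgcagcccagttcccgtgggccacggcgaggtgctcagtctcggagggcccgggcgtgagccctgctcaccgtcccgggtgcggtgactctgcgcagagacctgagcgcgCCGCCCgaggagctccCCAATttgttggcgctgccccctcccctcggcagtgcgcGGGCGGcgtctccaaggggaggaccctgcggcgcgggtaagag
Col1a2: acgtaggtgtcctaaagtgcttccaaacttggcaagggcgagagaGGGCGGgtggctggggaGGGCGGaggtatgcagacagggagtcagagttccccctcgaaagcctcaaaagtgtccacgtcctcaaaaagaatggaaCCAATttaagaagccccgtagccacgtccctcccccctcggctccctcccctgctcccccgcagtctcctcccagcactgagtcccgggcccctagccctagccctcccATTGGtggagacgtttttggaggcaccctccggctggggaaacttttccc
Col3a1: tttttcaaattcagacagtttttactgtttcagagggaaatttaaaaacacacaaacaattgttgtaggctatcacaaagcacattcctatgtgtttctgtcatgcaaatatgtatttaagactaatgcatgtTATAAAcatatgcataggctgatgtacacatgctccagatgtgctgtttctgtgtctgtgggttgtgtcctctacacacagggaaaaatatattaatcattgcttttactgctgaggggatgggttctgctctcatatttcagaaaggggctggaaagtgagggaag
Col8a2: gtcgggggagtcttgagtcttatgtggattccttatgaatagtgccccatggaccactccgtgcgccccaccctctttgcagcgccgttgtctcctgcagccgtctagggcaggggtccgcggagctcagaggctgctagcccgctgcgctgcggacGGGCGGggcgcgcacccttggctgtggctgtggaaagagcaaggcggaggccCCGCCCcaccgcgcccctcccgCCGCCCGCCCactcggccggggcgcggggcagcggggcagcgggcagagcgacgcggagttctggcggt
Col17a1: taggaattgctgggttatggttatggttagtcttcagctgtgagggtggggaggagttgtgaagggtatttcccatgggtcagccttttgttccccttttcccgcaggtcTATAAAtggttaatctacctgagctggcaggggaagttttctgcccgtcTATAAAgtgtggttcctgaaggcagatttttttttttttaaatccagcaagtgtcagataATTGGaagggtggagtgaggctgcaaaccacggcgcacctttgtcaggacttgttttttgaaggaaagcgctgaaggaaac

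The windows of Col4a1 and Col4a2 shared 78 bases, identical once one of them was reverse-complemented, and the annotated first bases of both genes overlapped by 22 bases. Over the 38 promoter entries that 35 of the 44 collagen genes had in the table, 13 (34.2%) held a CCAAT box, against 37.4% of all 32851 promoters. A GC box stood in 23 of the 38 (60.5%), against 35.7% of all promoters, and a TATA box in 5 (13.2%), against 13.6%. The core motif of TCF/LEF factors, the partners of beta-catenin (CTTTGAA or CTTTGAT or CTTTGTA or CTTTGTT on either strand), stood in 7 of the 38 (18.4%), against 16.9% of all promoters, and in none of the 6 windows printed here. These matches describe letters in a window and were not tied to binding of any factor.

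Most collagen genes that could be tested were higher in BRD0705/PD03. Of the 44 members, 35 passed the filter on low counts, 25 were called higher, 3 were called lower and 7 were not called. Over all 20422 tested genes, 30.1% were called higher and 31.4% lower, 61.4% in either direction. The median log2 fold change of the tested members was 0.84, where that of all tested genes was 0.00. By class, 9 of 10 tested fibrillar genes were called higher and 1 lower, 4 of 5 type IV genes were called higher, and of 20 genes of the other classes 12 were called higher and 2 lower. The groups did not overlap for 24 of the 35 tested members with BRD0705/PD03 above 2i and for 4 with BRD0705/PD03 below, where this held for 32.4% and 33.6% of all tested genes, 66.0% in either direction. Col8a2 and Col28a1 passed the filter through their BRD0705/PD03 libraries alone, so a difference was bound to appear for them. In the same libraries 15 of 17 fibroblast markers were called higher, with summed levels of 583 to 727 CPM in BRD0705/PD03 and 296 to 314 CPM in 2i. Against a fold of 1.5 in place of no change, 17 of the 35 tested members were called higher and 0 lower. The same test called 2498 of all 20422 tested genes higher and 2596 lower.

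**Figure D1:**
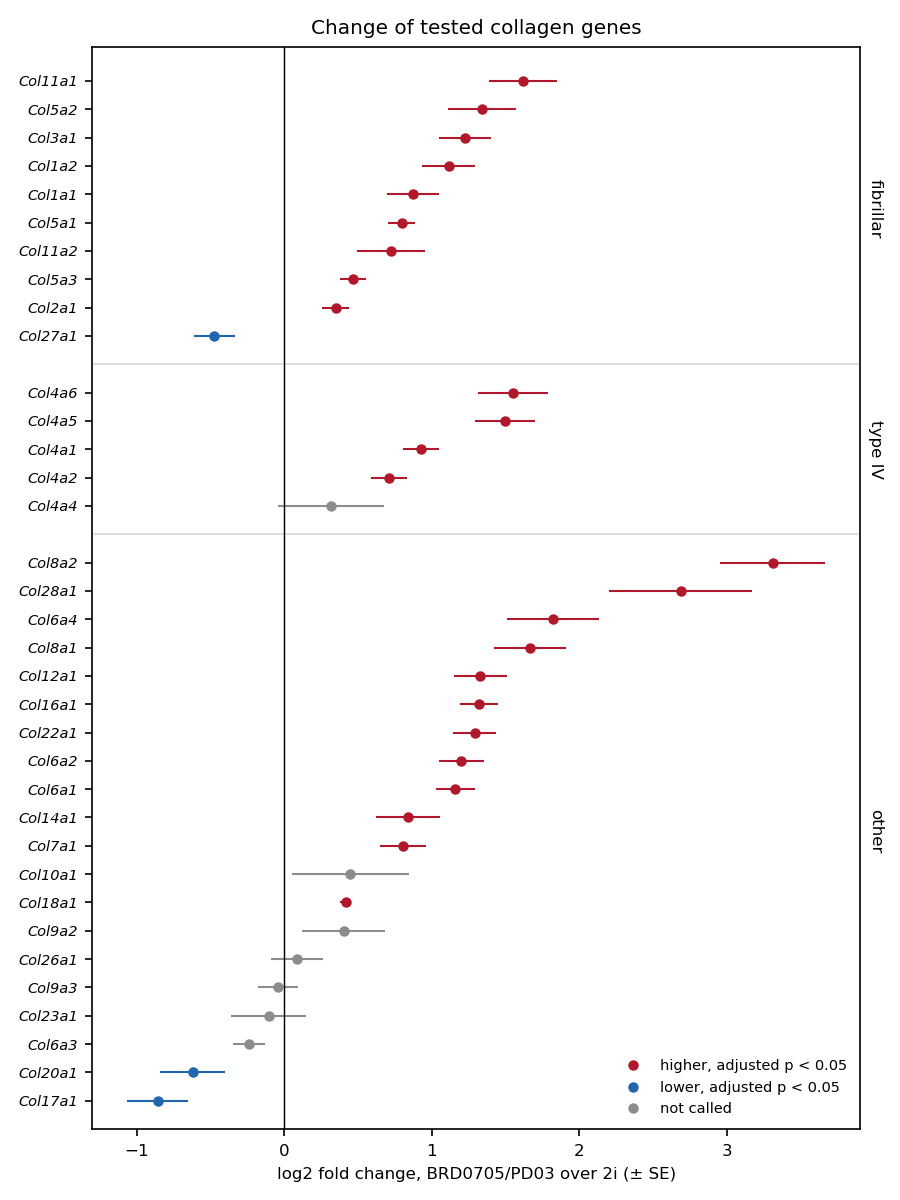
Log2 fold change of BRD0705/PD03 over 2i (x axis, points with standard error) for the 35 tested collagen genes, by class and in order of change. Red points mark the 25 genes called higher, blue points the 3 called lower (Col27a1, Col20a1 and Col17a1) and grey points the 7 not called.

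The fibrillar genes made up the largest summed level of the 3 classes. Their 11 members together stood at 873, 1177 and 1315 CPM in BRD0705/PD03 libraries 1, 2 and 3, against 533, 528 and 507 CPM in 2i libraries 1, 2 and 3. Type IV members summed to 125, 154 and 176 CPM in BRD0705/PD03, against 76.6, 80.2 and 79.2 CPM in 2i. The other classes summed to 555, 632 and 645 CPM in BRD0705/PD03, against 396, 388 and 385 CPM in 2i. In each class the lowest BRD0705/PD03 library lay above the highest 2i library, by 1.64 times for fibrillar, 1.56 times for type IV and 1.40 times for other members. The BRD0705/PD03 libraries were also far apart from one another, while the 2i libraries lay close together.

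Type I collagen, the main collagen of skin, bone and tendon, was higher for both of its chains. Col1a1 (chromosome 11, 94936224 to 94953042) had 114, 140.0 and 173 CPM in BRD0705/PD03 libraries 1, 2 and 3, against 79.6, 77.8 and 75.7 CPM in 2i. Its log2 fold change was 0.87 ± 0.18 (adjusted p = 0.0126). Col1a2 (chromosome 6, 4504814 to 4541544) had 236, 332 and 354 CPM in BRD0705/PD03, against 144, 146 and 137 CPM in 2i, a change of 1.11 ± 0.18 (adjusted p = 0.00593). For both chains library 1 was the lowest and library 3 the highest of the BRD0705/PD03 group, and no BRD0705/PD03 library overlapped the 2i range.

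Type III collagen, which accompanies type I in elastic tissues, and type V, which controls fibril diameter, followed. Col3a1 (chromosome 1, 45311538 to 45349706) had 232, 312 and 349 CPM in BRD0705/PD03, against 128, 127 and 127 CPM in 2i (log2 fold change 1.23 ± 0.18, adjusted p = 0.00377). Col5a2, its neighbour tail to tail on chromosome 1 at a distance of 24614 bases, had 175, 257 and 292 CPM in BRD0705/PD03, against 100.1, 98.5 and 87.7 CPM in 2i (1.34 ± 0.23, adjusted p = 0.00727). The neighbours both rose, with the same library order within BRD0705/PD03 as Col1a1 and Col1a2 on other chromosomes. Col5a1 had 80.4, 95.1 and 104 CPM in BRD0705/PD03, against 54.1, 53.2 and 54.1 CPM in 2i (0.79 ± 0.09, adjusted p = 0.00014). Col5a3 rose less, at 10.9, 12 and 12.8 CPM in BRD0705/PD03, against 8.84, 8.48 and 8.60 CPM in 2i (0.47 ± 0.09, adjusted p = 0.000132).

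Type XI and type II collagens, which form the thin fibrils of cartilage, were much less abundant. Col11a1 had 9.37, 14.2 and 15.8 CPM in BRD0705/PD03, against 4.39, 4.65 and 3.71 CPM in 2i, the highest log2 fold change of the fibrillar class (1.62 ± 0.23, adjusted p = 0.00107). Col2a1 had 10.1, 9.91 and 9.10 CPM in BRD0705/PD03, against 7.95, 7.44 and 7.54 CPM in 2i (0.35 ± 0.09, adjusted p = 0.00268). Unlike the genes above, Col2a1 had its highest BRD0705/PD03 value in library 1. Col11a2 stood at 1.39 ± 0.0866 CPM in BRD0705/PD03 and 0.865 ± 0.129 CPM in 2i (SD, n = 3 each), with a log2 fold change of 0.72 ± 0.23 (adjusted p = 0.0111). That call was lost without 2i library 2 (adjusted p = 0.0611) and with DESeq2 (adjusted p = 0.0739). Col27a1, a fibrillar collagen of cartilage with a short helix, went the other way, at 3.39, 3.34 and 3.41 CPM in BRD0705/PD03, against 5.58, 4.23 and 4.54 CPM in 2i (-0.47 ± 0.14, adjusted p = 0.00615). Col24a1, the remaining fibrillar member, was below the filter with 41 counts over the BRD0705/PD03 group and 18 over the 2i group.

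**Figure D2:**
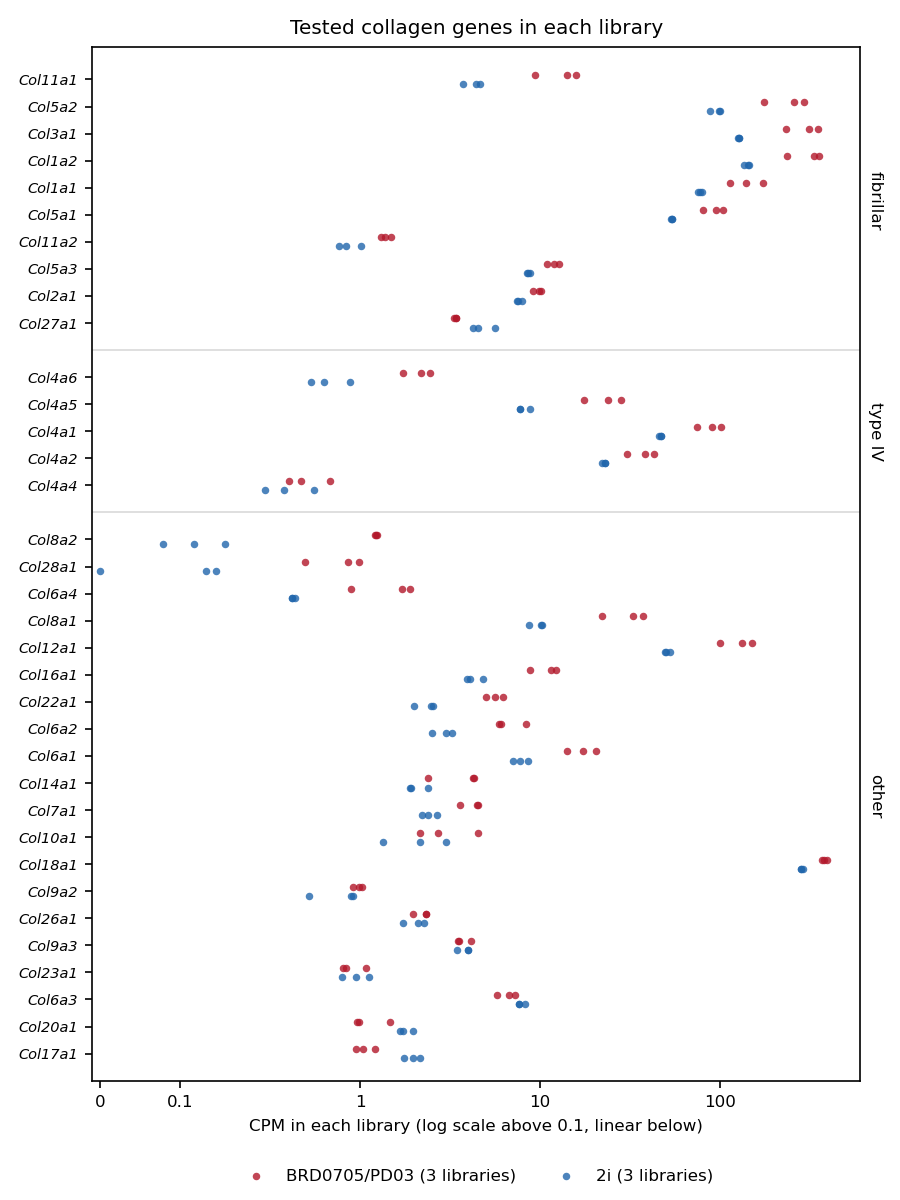
CPM of the 35 tested collagen genes in each library (x axis, log scale above 0.1 and linear below), with the 3 BRD0705/PD03 libraries in red above the 3 2i libraries in blue, by class. Col18a1 is at 370.4 to 392 CPM in BRD0705/PD03 and 281 to 290.4 CPM in 2i, and Col28a1 has a 2i library at 0.

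Among the type IV chains, Col4a1 and Col4a2, which assemble together in nearly all basement membranes, were the abundant members. Col4a1 (chromosome 8, 11198423 to 11312826) had 74.4, 90.0 and 102 CPM in BRD0705/PD03, against 45.9, 47.0 and 47.2 CPM in 2i (log2 fold change 0.93 ± 0.12, adjusted p = 0.00134). Col4a2 (chromosome 8, 11312805 to 11449287) had 30.5, 38.1 and 42.8 CPM in BRD0705/PD03, against 22.1, 23.0 and 22.9 CPM in 2i (0.71 ± 0.12, adjusted p = 0.0022). These are the head-to-head genes whose shared promoter bases are printed above, and both rose.

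The X-linked chains Col4a5 and Col4a6, found in kidney, skin and smooth muscle basement membranes and also placed head to head, were also higher. Col4a5 (chromosome X, 141475385 to 141689234) had 17.5, 23.8 and 28.1 CPM in BRD0705/PD03, against 7.77, 8.82 and 7.77 CPM in 2i (1.5 ± 0.21, adjusted p = 0.00166). Col4a6 (chromosome X, 141165403 to 141474076) had 1.73, 2.18 and 2.45 CPM in BRD0705/PD03, against 0.534, 0.878 and 0.631 CPM in 2i (1.55 ± 0.24, adjusted p = 1.43e-05). Of 717 tested X-linked genes, 106 (14.8%) were called higher and 473 (66.0%) lower, with a median log2 fold change of -0.78, so this pair moved against most genes of its chromosome. Whether the changes of the type IV pairs differed in size was not tested. Col4a3 and Col4a4, the chains of the kidney filter and a further head-to-head pair, were scarce: Col4a4 stood at 0.514 ± 0.145 CPM in BRD0705/PD03 and 0.409 ± 0.131 CPM in 2i (0.32 ± 0.36, adjusted p = 0.468), and Col4a3 was below the filter with 17 counts over the BRD0705/PD03 group and 11 over the 2i group.

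Col18a1 (chromosome 10, 77052178 to 77166548), a multiplexin of basement membranes from which endostatin is cut, had more counts per kilobase of exon than any other collagen gene in both groups. It had 370.4, 392 and 377 CPM in BRD0705/PD03, against 290.4, 283 and 281 CPM in 2i. The log2 fold change was small and steady across libraries, 0.42 ± 0.04 (adjusted p = 3.01e-08), and library 2 was the highest of the BRD0705/PD03 group. Its sister multiplexin Col15a1 was scarce, with 7 counts over the BRD0705/PD03 group and 4 over the 2i group.

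Fibril-associated collagens attach to the surface of fibrils. Col12a1, the most abundant of them by CPM, had 100.3, 133 and 151 CPM in BRD0705/PD03, against 50.3, 49.8 and 52.9 CPM in 2i (log2 fold change 1.33 ± 0.18, adjusted p = 0.00292). Col16a1 had 8.81, 11.4 and 12.2 CPM in BRD0705/PD03, against 4.09, 4.79 and 3.91 CPM in 2i (1.32 ± 0.13, adjusted p = 1.76e-07). Col22a1, a collagen of tissue junctions, was at 5.61 ± 0.609 CPM in BRD0705/PD03 and 2.34 ± 0.304 CPM in 2i (1.29 ± 0.15, adjusted p = 3.97e-07). All 3 genes rose without overlap of the groups. Col14a1 was also called higher (0.84 ± 0.22, adjusted p = 0.00356), although BRD0705/PD03 library 1 and 2i library 1 both stood at 2.37 CPM. Col20a1 had 0.955, 0.981 and 1.47 CPM in BRD0705/PD03, against 1.72, 1.66 and 1.97 CPM in 2i (-0.62 ± 0.22, adjusted p = 0.0214). The call of Col20a1 was lost without BRD0705/PD03 library 1 (adjusted p = 0.082), without BRD0705/PD03 library 2 (adjusted p = 0.08), without 2i library 3 (adjusted p = 0.0778) and with DESeq2 (adjusted p = 0.0884). The type IX chains of cartilage were not called, with Col9a3 at 3.71 ± 0.343 CPM in BRD0705/PD03 and 3.80 ± 0.283 CPM in 2i (-0.04 ± 0.14, adjusted p = 0.814) and Col9a2 at 0.40 ± 0.28 on the log2 scale (adjusted p = 0.228). Col9a1 had 4 counts in each group, and Col19a1 had 3 counts in BRD0705/PD03 and 0 in 2i, where a count of 0 allows up to 0.0325 CPM over that group (counting error only).

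Type VI collagen forms beaded filaments around cells from chains that Col6a1, Col6a2 and one further gene supply. Col6a1 had 14.2, 17.2 and 20.4 CPM in BRD0705/PD03, against 8.61, 7.70 and 7.10 CPM in 2i (log2 fold change 1.16 ± 0.13, adjusted p = 2.07e-05). Col6a2 was at 6.79 ± 1.36 CPM in BRD0705/PD03 and 2.91 ± 0.378 CPM in 2i (1.20 ± 0.15, adjusted p = 2.27e-06). Col6a3, the usual further chain, had 6.75, 5.77 and 7.28 CPM in BRD0705/PD03, against 7.66, 7.60 and 8.29 CPM in 2i. It did not pass the test (-0.24 ± 0.11, adjusted p = 0.0601), although every BRD0705/PD03 library lay below every 2i library, and it passed as lower without BRD0705/PD03 library 3 (adjusted p = 0.0315). Of the chains that can replace it, Col6a4 had 0.894, 1.71 and 1.89 CPM in BRD0705/PD03, against 0.415, 0.419 and 0.434 CPM in 2i (1.82 ± 0.31, adjusted p = 4.9e-05). Col6a5 and Col6a6 were below the filter, with 44 and 26 counts over the BRD0705/PD03 group, against 10 and 11 counts over the 2i group.

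The short-chain collagens of type VIII, known from the cornea and vessel walls, had some of the highest log2 fold changes. Col8a1 had 22.2, 32.8 and 37.2 CPM in BRD0705/PD03, against 10.1, 10.3 and 8.68 CPM in 2i (log2 fold change 1.66 ± 0.24, adjusted p = 0.00362). Col8a2 had 1.20, 1.23 and 1.23 CPM in BRD0705/PD03, from 39, 34 and 50 counts, against 0.178, 0.120 and 0.0789 CPM in 2i, from 3, 6 and 2 counts. Its log2 fold change of 3.31 ± 0.36 (adjusted p = 1.63e-07) was the highest of the collagens and rests on those few 2i counts. Col10a1, the collagen of hypertrophic cartilage, varied most within groups among tested members above 2 CPM, at 2.16, 4.50 and 2.70 CPM in BRD0705/PD03, against 2.14, 3.01 and 1.34 CPM in 2i, and was not called (0.45 ± 0.40, adjusted p = 0.38).

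The transmembrane collagens did not share the direction of the fibrillar genes. Col17a1, an anchor of epithelial cells to the basement membrane, had 1.20, 0.944 and 1.03 CPM in BRD0705/PD03, against 2.14, 1.76 and 1.97 CPM in 2i, the lowest log2 fold change of the collagens (-0.86 ± 0.21, adjusted p = 0.00137). Col23a1 was not called (-0.10 ± 0.25, adjusted p = 0.743), and Col13a1 and Col25a1 were below the filter, with 22 and 11 counts over the BRD0705/PD03 group, against 32 and 9 counts over the 2i group. Col7a1, which forms the anchoring fibrils beneath epithelia, was at 4.18 ± 0.529 CPM in BRD0705/PD03 and 2.42 ± 0.247 CPM in 2i (0.80 ± 0.16, adjusted p = 0.00019). Col28a1, a little-studied collagen, had 0.493, 0.981 and 0.858 CPM in BRD0705/PD03, from 16, 27 and 35 counts, against 0, 0.140 and 0.158 CPM in 2i, from 0, 7 and 4 counts (2.69 ± 0.48, adjusted p = 8.97e-05). Col26a1 was not called (0.08 ± 0.18, adjusted p = 0.705).

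The order of levels can be compared between genes only per length. Per kilobase of the longest annotated transcript, Col18a1 came first in both groups, at 67.9 CPM per kilobase in BRD0705/PD03 and 50.9 in 2i, followed by Col1a2 (57.5 in BRD0705/PD03 and 26.6 in 2i), Col3a1 (53.5 and 22.8), Col5a2 (36.5 and 14.4), Col1a1 (24.0 and 13.1) and Col4a1 (13.4 and 7.06). With the union of all annotated exons as length, Col18a1 stayed first and Col3a1 came next in both groups, and Col1a1, Col1a2 and Col5a2 changed places within the next 3. Within BRD0705/PD03 those 3 genes stood at 21.7 ± 4.51, 24.7 ± 5.04 and 25.2 ± 6.24 CPM per kilobase of exon union (SD, n = 3). They were measured in the same libraries, and Col1a1 was the lowest of the 3 in each of them, while Col1a2 was above Col5a2 in library 1 and below it in libraries 2 and 3. As a share of all collagen counts per kilobase of exon union, fibrillar genes held 53.7 ± 3.02% in BRD0705/PD03 and 46.6 ± 0.293% in 2i, and Col18a1 held 25.3 ± 3.55% in BRD0705/PD03 and 34.1 ± 0.334% in 2i (SD, n = 3 each).

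For 3 of 4 pairs of chains that assemble into one molecule, the ratio of the chains differed between the groups without overlap, in a design too small to pass a threshold of 0.05. The ratio of Col5a1 to Col5a2 counts per kilobase of exon union was 0.518, 0.418 and 0.402 in BRD0705/PD03, against 0.610, 0.610 and 0.697 in 2i. The ratio of Col4a1 to Col4a2 was 2.16, 2.10 and 2.11 in BRD0705/PD03, against 1.84, 1.81 and 1.83 in 2i, and that of Col1a1 to Col1a2 was 0.912, 0.799 and 0.924 in BRD0705/PD03, against 1.05, 1.01 and 1.05 in 2i. For these 3 pairs the groups did not overlap, with p = 0.1 by a two-sided exact permutation test for each pair, the smallest p that 3 libraries against 3 allow. The ratio of Col6a1 to Col6a2 overlapped, at 4.85 ± 0.473 in BRD0705/PD03 and 5.20 ± 1.18 in 2i (exact permutation p = 1.0). Adjusted over the 4 pairs, the p-values were 0.133 for the first 3 and 1.0 for Col6a1 with Col6a2. The size of each ratio depends on the annotated lengths, while the comparison between groups does not. Col4a5 with Col4a6 and Col9a1 with Col9a3 had fewer than 10 counts in some library and were not compared.

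**Figure D3:**
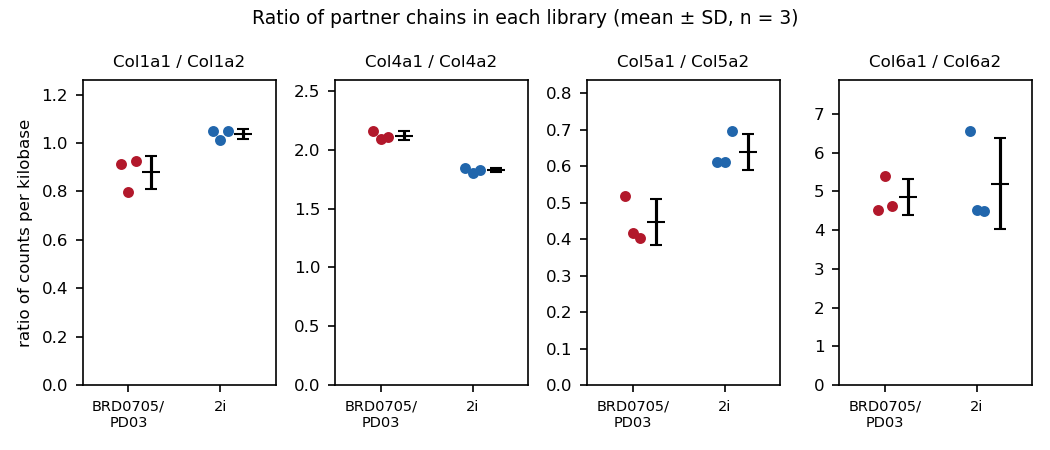
Ratio of partner chains in counts per kilobase of exon union (y axes, from 0) for each library of BRD0705/PD03 (red) and 2i (blue), with black bars for mean ± SD of 3 libraries. The groups are apart for Col1a1/Col1a2, Col4a1/Col4a2 and Col5a1/Col5a2 and overlap for Col6a1/Col6a2.

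The collagens varied more within BRD0705/PD03 than tested genes at large, and so did the fibroblast markers. Of the 17 collagen genes whose mean reached 5 CPM, 15 had their lowest BRD0705/PD03 value in library 1 and 15 their highest in library 3, and the median ratio of the highest to the lowest library was 1.44 in BRD0705/PD03 and 1.06 in 2i. Over the 11488 tested genes at that level, 54.6% had their lowest value in library 1 and 31.9% their highest in library 3, with median ratios of 1.08 in BRD0705/PD03 and 1.09 in 2i. Of 11 fibroblast markers at that level, 10 had their lowest value in library 1 and 10 their highest in library 3. Their median ratios were 1.35 in BRD0705/PD03 and 1.10 in 2i. Among the collagens, Col18a1 and Col2a1 were exceptions that did not have their highest value in library 3, and Col2a1 and Col6a3 did not have their lowest in library 1. Without BRD0705/PD03 library 1, 26 collagens were called higher and 2 lower, without library 2, 25 and 2, and without library 3, 25 and 4.

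Most fibroblast markers that are no collagens moved with the groups, and most of the abundant ones also with the libraries. Of 17 markers, 15 were called higher in BRD0705/PD03 and 0 lower, against 30.1% and 31.4% of all tested genes. Fap (0.69 ± 0.33, adjusted p = 0.0813) and Twist1 (0.48 ± 0.22, adjusted p = 0.0711) were not called. The 17 summed to 583, 659 and 727 CPM in BRD0705/PD03, against 306, 314 and 296 CPM in 2i. The median log2 fold change of the 17 was 0.93, and Tagln (3.66 ± 0.08) and Acta2 (2.58 ± 0.06) had the highest. Tagln had 60.3, 67.1 and 63.1 CPM in BRD0705/PD03, against 5.82, 5.17 and 4.22 CPM in 2i. Acta2 had 57.9, 59.6 and 64.4 CPM in BRD0705/PD03, against 10.7, 9.58 and 10.5 CPM in 2i. None of the 5 defining markers was at 0 in any library: Dcn stood at 55.7 ± 8.82 CPM in BRD0705/PD03 and 29.4 ± 2.55 CPM in 2i, Pdgfrb at 19.5 ± 3.82 and 8.26 ± 0.0947, Prrx1 at 19.9 ± 3.04 and 9.83 ± 0.852, Lum at 3.05 ± 1.10 and 1.60 ± 0.226, and Twist2 at 1.28 ± 0.0593 and 0.773 ± 0.0553 (SD, n = 3 each). Together these 5 had 84.2, 97.2 and 117 CPM in BRD0705/PD03, against 48.8, 53.0 and 47.8 CPM in 2i. For each CPM of the 5 defining markers there were 10.4, 12.1 and 11.2 CPM of fibrillar collagens in BRD0705/PD03, against 10.9, 9.96 and 10.6 CPM in 2i, so the groups overlapped in this ratio. The same ratio for type IV collagens was 1.52 ± 0.0559 in BRD0705/PD03 and 1.58 ± 0.072 in 2i, and for Col18a1 it was 3.88 ± 0.6 in BRD0705/PD03 and 5.72 ± 0.328 in 2i (SD, n = 3 each). The part of fibroblast RNA in the collagen differences was not tested.

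**Figure D4:**
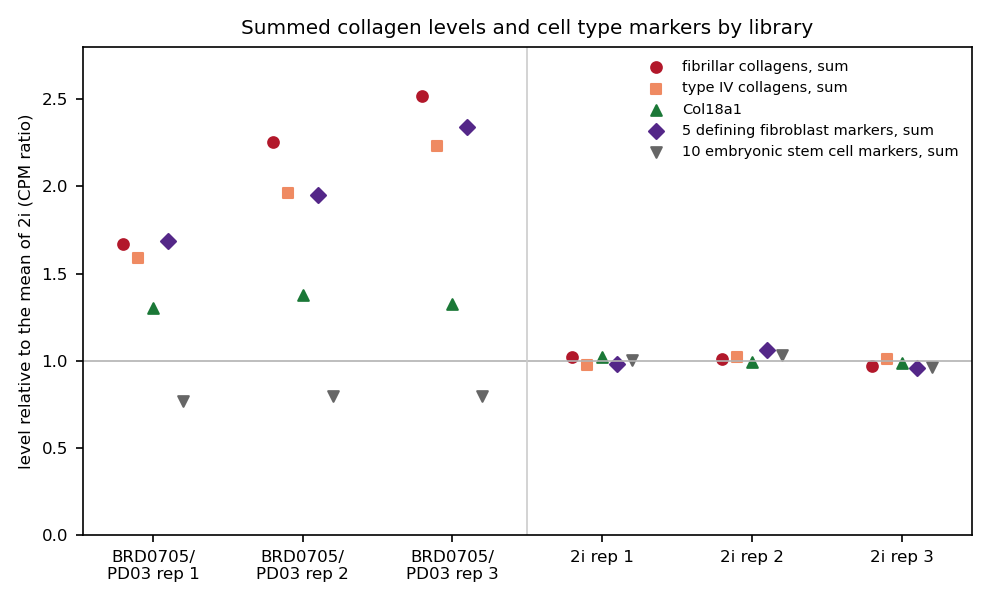
Level in each library relative to the mean of the 3 2i libraries (y axis, ratio of CPM) for the summed fibrillar collagens, the summed type IV collagens, Col18a1, the 5 defining fibroblast markers and 10 ESC markers, with BRD0705/PD03 libraries on the left. The fibrillar, type IV and fibroblast sums are lowest in library 1 and highest in library 3 of BRD0705/PD03, while Col18a1 differs little among those libraries.

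Markers of other cells that make collagen did not share one direction. The 5 defining markers of primitive and parietal endoderm, an embryonic lineage that secretes type IV collagen, summed to 2.00 to 2.25 CPM in BRD0705/PD03 and 2.15 to 2.73 CPM in 2i. The whole list of 10 summed to 374 to 452 CPM in BRD0705/PD03 and 389 to 408 CPM in 2i. Of 9 tested members 4 were called higher and 2 lower, against 30.1% and 31.4% of all tested genes. Foxa2, Lamb1, Dab2 and Pdgfra were higher, and Gata4 and Sparc lower. Most of the sum came from Sparc, at 272 ± 30.6 CPM in BRD0705/PD03 and 350 ± 11.8 CPM in 2i, and Lamb1, at 138 ± 10.9 and 38.6 ± 1.90. Foxa2 had 47 counts over the BRD0705/PD03 group and 7 over the 2i group. It passed the filter through its BRD0705/PD03 libraries alone, so a difference was bound to appear for it. Gata6 was not called, at 0.513 ± 0.0717 CPM in BRD0705/PD03 and 0.614 ± 0.148 CPM in 2i. The 3 defining cartilage markers summed to 4.86 to 5.85 CPM in BRD0705/PD03 and 6.20 to 7.48 CPM in 2i. The whole cartilage list of 6 summed to 5.59 to 6.66 CPM in BRD0705/PD03 and 6.58 to 7.66 CPM in 2i. Only 3 of its members were tested, with 0 called higher and 1 lower, against 30.1% and 31.4% of all tested genes. The 3 defining endothelial markers were higher, at 15.6 to 18 CPM in BRD0705/PD03 and 7.42 to 7.74 CPM in 2i, almost wholly through the receptor gene Tek (1.18 ± 0.08, adjusted p = 5.48e-10). Cdh5, the cadherin that defines endothelium, was at 0 in the 3 2i libraries and at most at 0.109 CPM in BRD0705/PD03. The whole list of 6 endothelial markers summed to 77.0 to 82.6 CPM in BRD0705/PD03 and 115 to 129 CPM in 2i. Only 4 of them were tested, with 1 called higher and 2 lower, against 30.1% and 31.4% of all tested genes. The part of these cell types in the collagen differences was not tested.

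Enzymes and chaperones that turn collagen chains into fibres moved both ways: of 30 genes, all tested, 17 were called higher and 10 lower, with a median log2 fold change of 0.44, where 30.1% of all tested genes were called higher and 31.4% lower with a median of 0.00. The genes were also divided by where they act, a division made after their values were seen. Of the 12 genes for steps outside the cell, 10 were called higher and 2 lower. Of the 18 genes for steps inside the cell, 7 were called higher and 8 lower. For both divisions the shares of all tested genes were 30.1% higher and 31.4% lower. Adamts3, among the 10, lost its call in 4 of 6 fits with 1 library left out (adjusted p up to 0.219). Outside the cell, Pcolce, an enhancer of procollagen cleavage, stood at 38.0 ± 1.34 CPM in BRD0705/PD03 and 14.4 ± 1.10 CPM in 2i (1.39 ± 0.06, adjusted p = 8.97e-13). Its paralog Pcolce2 went the other way, at 19.7 ± 0.702 CPM in BRD0705/PD03 and 46.4 ± 1.14 CPM in 2i (-1.23 ± 0.05, adjusted p = 4.5e-13). The cross-linking enzyme gene Lox had 172, 235 and 262 CPM in BRD0705/PD03, against 89.3, 90.2 and 83.7 CPM in 2i (1.35 ± 0.19, adjusted p = 0.00339), and Bmp1, a procollagen protease, changed by 0.99 ± 0.09 (adjusted p = 3.63e-07).

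Inside the cell, Colgalt1, which adds galactose to collagen hydroxylysine, had 69.6, 72.1 and 70.7 CPM in BRD0705/PD03, against 161, 165 and 153 CPM in 2i (-1.18 ± 0.04, adjusted p = 2.04e-14). Mia3, which helps procollagen leave the endoplasmic reticulum, fell by 0.56 on the log2 scale (adjusted p = 4.03e-10). Serpinh1, the collagen chaperone HSP47, had 109, 129 and 138 CPM in BRD0705/PD03, against 243, 244 and 223 CPM in 2i (-0.91 ± 0.09, adjusted p = 0.000149). The partners Crtap and Ppib, of the complex that modifies collagen prolines, fell by 0.70 and 0.56 on the log2 scale, and P4hb, a subunit of prolyl 4-hydroxylase, by 0.39. Fkbp10, another collagen chaperone, rose by 1.17 on the log2 scale (adjusted p = 2.93e-09), and Plod2, which hydroxylates lysines, was not called (-0.01 ± 0.05, adjusted p = 0.862). P4ha3, P3h4, P4ha2, Plod1, P3h3 and Plod3 were also called higher, by 1.48, 0.48, 0.47, 0.41, 0.35 and 0.13 on the log2 scale. With 1 library left out, the call of Plod3 was lost in 3 of 6 fits and that of P4ha2 in 1. Colgalt2 and P3h1 were also called lower, by 1.17 and 0.40. Colgalt2, at 0.218 to 0.247 CPM in BRD0705/PD03 and 0.395 to 0.658 CPM in 2i, passed the filter through its 2i libraries alone. A difference was thus bound to appear for Colgalt2, and its call was lost in 2 of 6 fits with 1 library left out. Apart from Colgalt1 and Mia3, the genes named here for steps inside the cell were named after their values were seen, as were Lox and Bmp1. For Serpinh1, Crtap, Ppib, P4hb, Colgalt1 and Mia3, no library of BRD0705/PD03 reached the 2i range.

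**Figure D5:**
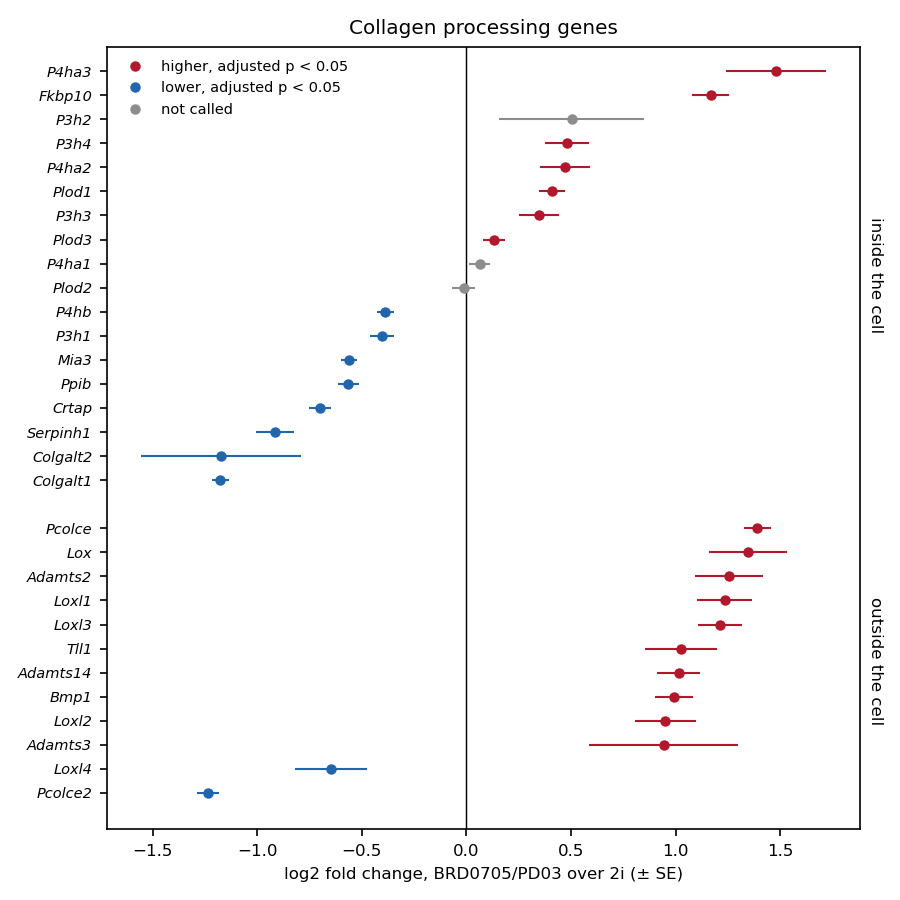
Log2 fold change of BRD0705/PD03 over 2i (x axis, points with standard error) for 30 collagen processing genes, divided by whether they act inside or outside the cell. Of the 18 inside, 7 are called higher (red) and 8 lower (blue), and of the 12 outside 10 are called higher and 2 lower.

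Among 9 tested collagen receptors, 5 were called higher and 1 lower, a share in either direction near the 61.4% of all tested genes. Itga1, a chain of a collagen-binding integrin, had 6.50, 9.99 and 9.83 CPM in BRD0705/PD03, against 1.36, 1.99 and 1.66 CPM in 2i (2.33 ± 0.19, adjusted p = 3.98e-07). Itga2, its counterpart for a related integrin, changed by 1.58 ± 0.29 (adjusted p = 9.86e-05), the uptake receptor gene Mrc2 by 1.56 ± 0.17 (adjusted p = 4.46e-05) and the receptor kinase gene Ddr1 by 0.58 ± 0.07 (adjusted p = 6.69e-07). The shared integrin chain Itgb1, named after its value was seen, was not called (-0.06 ± 0.06, adjusted p = 0.432). The receptor called lower, Itga10 (-0.57 ± 0.22, adjusted p = 0.0303), lost its call when any of the 6 libraries was left out (adjusted p = 0.0507 to 0.0775). Genes of collagen breakdown and its inhibitors were called higher in 7 of 8 tested cases and lower in 0, against 30.1% and 31.4% of all tested genes. Mmp13, among the 7, lost its call in 4 of 6 fits with 1 library left out (adjusted p up to 0.164). Timp3, an inhibitor of matrix proteases, stood at 76.7 ± 5.72 CPM in BRD0705/PD03 and 23.9 ± 0.625 CPM in 2i (1.69 ± 0.06, adjusted p = 1.11e-14). The collagenase gene Mmp14 changed by 1.14 ± 0.06 (adjusted p = 1.37e-11), the gelatinase gene Mmp2 by 1.20 ± 0.10 (adjusted p = 6.47e-09) and the protease gene Ctsk by 1.02 ± 0.17 (adjusted p = 5.26e-05).

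Proteins that join collagens in the matrix were divided by the matrix they belong to. Of 8 tested fibril partners 6 were called higher and 0 lower, where 30.1% of all tested genes were called higher. Among them were Fbn1 (1.51 ± 0.16, adjusted p = 0.00101), Thbs1 (1.21 ± 0.12, adjusted p = 0.000615), Thbs2 (1.08 ± 0.13, adjusted p = 0.000338) and Tnc (0.77 ± 0.10, adjusted p = 0.00098). Fbn1 is also on the list of fibroblast markers. Fn1, the fibronectin gene, was not called, at 798 ± 55.8 CPM in BRD0705/PD03 and 810 ± 15.9 CPM in 2i (-0.02 ± 0.05, adjusted p = 0.727; named after its value was seen). Basement membrane partners went apart, with 4 of 10 called higher and 6 lower, against 30.1% and 31.4% of all tested genes. Nid1, which links laminin to type IV collagen, stood at 57.5 ± 3.84 CPM in BRD0705/PD03 and 204 ± 2.86 CPM in 2i (-1.83 ± 0.05, adjusted p = 1.86e-16). Its paralog Nid2 was more abundant and went the other way, at 422 ± 6.80 CPM in BRD0705/PD03 and 260 ± 1.41 CPM in 2i. The log2 fold change of Nid2, named after its value was seen, was 0.70 ± 0.04 (adjusted p = 8.98e-12). The laminin genes Lama1 and Lamc1 fell by 2.65 and 1.12 on the log2 scale and Lamb1 rose by 1.84.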

How the data were processed

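Total RNA of 6 ESC libraries was sequenced. The deposited tables give an estimated count per gene symbol, as whole numbers with different totals per library. Per the submitters' processing notes, the authors used Salmon and mm10. Salmon's version, the annotation and the strand setting are not stated there. Without strand, reads of overlapping genes cannot be told apart, though no exon overlap exceeded 6.07% of a collagen gene.

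Groups came from the sample titles. All 53927 symbols were fitted with edgeR 4.0.16 in R 4.3.3: filterByExpr, TMM, robust quasi-likelihood test, group as the only term, Benjamini-Hochberg adjustment over 20422 genes, threshold 0.05. Standard errors were the absolute log2 fold change over the square root of F. The steps were tested on simulated data with the same spread for all genes and both groups. That setting does not cover the wider spread of the collagens within BRD0705/PD03. Positions, lengths and overlaps came from GENCODE M21 (GRCm38), where all 44 members matched by symbol. Chi-square per degree of freedom within groups was 2.77 to 9.84.

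The members, classes and lists were chosen with earlier results of these data known. Fbn1, Loxl1, Mmp2, Pdgfra, Lamb1, Sparc and Comp each stand on more than 1 list, so the counts of different lists are not independent. Members named by rule were the 17 whose mean reached 5 CPM and, of the called members, the 5 with the highest and the 5 with the lowest log2 fold change, and up to 4 genes per pathway list with the smallest p are named. A further few were named after their values were seen. Alternatives were DESeq2 1.42.0, other scaling and filters, a test against a fold of 1.5, a replicate block, each library left out, other lengths and another class division.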

Additional observations from a re-analysis of the deposited data

How the results depend on the processing

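Of 25 collagen genes called higher, median-ratio and upper-quartile factors kept 25, DESeq2 24 and a minimum mean of 1 CPM 22 (Col28a1, Col6a4 and Col8a2 were not tested there). Without a filter 27 were called higher, adding Col10a1 and Col6a5. Leaving out 1 library gave 25 to 26 higher and 2 to 4 lower, with 1 to 3 lower among the other classes. No tested member reversed its sign with a call. Over 449 comparisons of tested members between the reported fit and an alternative, 426 kept their side of the threshold, 19 lost a call and 4 gained one. The test against a fold of 1.5 called 2498 genes higher and 2596 lower among all genes, 5 fibrillar genes higher, and 0 collagens lower, 0 of them fibrillar and 0 of the other classes. DESeq2 called 1 gene of the other classes lower.

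Same-numbered libraries shared no deviations (correlations -0.008, 0.034 and -0.036), so the numbers were not taken as pairs. With the replicate block 24 collagens were called higher and 4 lower, Col1a1 (adjusted p = 0.0542) and Col5a2 (adjusted p = 0.0509) were no longer called, and Col10a1 and Col6a3 were.

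With the longest transcript as length, mean ratios in BRD0705/PD03 and 2i were 0.418 and 0.494 for Col1a1/Col1a2, 2.33 and 2.01 for Col4a1/Col4a2, 0.311 and 0.446 for Col5a1/Col5a2, and 3.06 and 3.28 for Col6a1/Col6a2. With Col7a1, Col15a1 and Col18a1 counted as basement membrane, that class summed to 536 CPM in BRD0705/PD03 and 366 CPM in 2i, and the other classes to 227 and 103 CPM. Plain library totals moved no class sum by more than its spread. Members under about 0.335 CPM, the level the filter asks for in 3 libraries, are too shallow for a comparison.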
